A study of Mus musculus with 3 samples.

Results

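A set of 379 transcript models from mouse testis had a set of introns that differed from that of the annotated models they matched at both ends. Each was a model coded as a new form of a protein-coding (NM) gene. Its 5′ and 3′ ends each lay within 50 bp of those of at least 1 annotated model of the same gene symbol, chromosome and strand, while its set of introns differed from that of every such model. The 379 isoforms were 379 of the 7033 models with that code and of 50081 models in all. Of the 7033, 395 had both ends within 50 bp of an annotated model, and 16 of these had the same introns and were left out. The members were therefore selected on their ends and introns. Their number and the fact that they differ are a description.

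The series measured RNA ends in testes of wild-type C57BL/6J mice with 3 libraries, 1 per group. CAGE, which reads capped 5′ ends, was made from total RNA at 10.5 days post partum (dpp) and from adults. PAS-Seq, which reads polyadenylated 3′ ends, was made from adults, with reads of 100 nt. Both methods read RNA ends, and the sources used here do not give which reads the introns of the models came from. The models came as 1 table for the whole series with no read count or level per library, so the depth behind each isoform is unknown and the 3 groups could not be compared. Exons, introns and genes of 1 table are not replicates, so no test was run. Shares are given as a description, and a range in brackets after a share is its exact Clopper-Pearson 95% interval, which covers counting error only.

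Splicing removes introns at a donor site, the 5′ end of the intron, and an acceptor site, its 3′ end. Alternative splicing can leave out or take in an exon, keep an intron, or use another donor or acceptor. Where the change lies in coding sequence, an insertion or loss whose length is a multiple of 3 keeps the reading frame. Testis is known as a tissue rich in alternatively spliced and retained-intron transcripts.

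The isoforms belonged to 340 genes. Of the 19402 genes with an annotated multi-exon model, 338 (1.74%) had at least 1 such isoform, and of the 12657 genes whose annotated multi-exon model was coded as protein coding, 337 (2.66%) did. A single isoform was found for 305 genes, 2 for 31 genes and 3 for 4 genes. The share of genes with an isoform was 1.74% (1.33 to 2.24) for genes with 2 to 5 exons, 2.28% (1.83 to 2.80) for 6 to 10, 2.83% (2.32 to 3.42) for 11 to 20, and 5.03% (4.03 to 6.18) for 21 or more. On chromosome 18, 1 of 342 genes coded as protein coding (0.292%, 0.00740 to 1.62), Mbp, had an isoform, against 1.52% to 3.55% on each of the other autosomes and X, a contrast noticed in the data and not tested. All totals are those of the table as analysed here, and whether it is complete was not tested. The annotated models set against the isoforms had a median of 12 exons, against 9 for all multi-exon annotated models coded NM.

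Ends within 50 bp were required by the rule, and many lay closer. Against the end-matched annotated model with the fewest unshared introns, the 5′ end was at the annotated base in 208 isoforms. The 3′ end was so in 241, and both were in 145 (38.3%, 33.3 to 43.4). Against the annotated model closest at the ends, both were in 146. At the limit of the rule, 19 isoforms had their larger end distance between 46 and 50 bp, and 17 models just outside had theirs between 51 and 55 bp.

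A moved splice site was the most frequent difference from the nearest annotated model, and whole-exon changes were fewer. A splice site was moved in 171 isoforms (45.1%, 40.0 to 50.3), and in 103 of 311 when sites within 5 bp were taken as the same. An intron was retained in 57 (15.0%, 11.6 to 19.0), an exon was skipped in 53 (14%, 10.7 to 17.9) and an exon was added in 28 (7.39%, 4.97 to 10.5). In 17 isoforms (4.49%, 2.63 to 7.08) an intron was cut out of what is 1 annotated exon. Each count above holds isoforms with differences of that kind only. A further 49 (12.9%, 9.72 to 16.7) combined differences of several kinds. In 4 more (1.06%, 0.288 to 2.68), of 1810030N24Rik, Asl, Fam71d and Mak, the only differing stretch fell in none of these classes. Another 9 such stretches lay in the isoforms with several kinds. Of the 379 isoforms, 307 (81.0%, 76.7 to 84.8) differed in 1 stretch of the transcript only, and the lengths below are from those. At least 1 intron that no annotated model of the gene has was present in 288 isoforms (76.0%, 71.4 to 80.2). The other 91 combined annotated introns in a set that no end-matched model had. They include all 57 with retained introns only, since retaining an intron makes no new one.

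**Figure D1:**
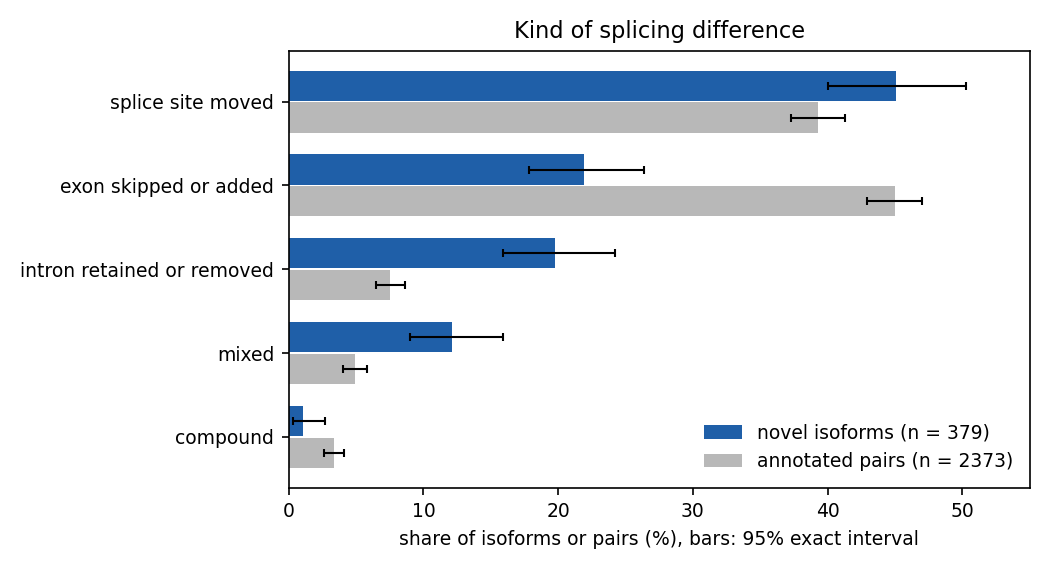
Share of isoforms in each class of splicing difference (blue, 379 isoforms) beside the same classes for pairs of annotated models of 1 gene with matched ends (grey, 2373 pairs), with exact 95% intervals. A moved splice site is the largest class of the isoforms at 45.1%, and exons skipped or added, at 21.9%, are fewer than the 45% of annotated pairs.

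The mix of classes was set beside pairs of annotated NM models of 1 gene whose ends also lay within 50 bp of each other. In a pair neither model is the reference, so skipped with added exons and retained with removed introns were joined. Exons skipped or added made up 21.9% of the isoforms (17.8 to 26.4) and 45% of the 2373 annotated pairs (42.9 to 47.0). Introns retained or removed made up 19.8% of the isoforms (15.9 to 24.2) and 7.5% of the pairs (6.47 to 8.64). Moved splice sites made up 45.1% and 39.3% (37.3 to 41.3). The intervals of the first 2 classes did not overlap, but they cover counting error only and are no test. Each isoform was classed against its nearest annotated model only. The differences were not tested, the annotated pairs share genes with each other, and the pairs were not recounted with sites within 5 bp taken as the same.

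Cases with a simple difference are drawn in the maps of spliced transcripts, and these genes were chosen after their values were seen. In Kitl, which encodes the ligand of the receptor Kit that germ cells and their precursors need, the isoform lacked exon 6 of the annotated model, 84 bp long (chromosome 10, 99543491 to 99543574, mm9). This is the exon whose loss is known to give the form of the ligand that stays on the cell membrane. In Mapt, the microtubule-binding protein tau, exon 7 of the annotated model was skipped, 93 bp that encode part of the microtubule-binding repeats (chromosome 11, 104179471 to 104179563). In Ezh2, the histone methyltransferase of Polycomb repressive complexes, exon 14 of 126 bp was skipped (chromosome 6, 47491844 to 47491969). In Kdm1a, a histone lysine demethylase, an exon of 60 bp was added in intron 2 (chromosome 4, 136137955 to 136138014). All 4 of these lengths are multiples of 3.

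**Figure D2:**
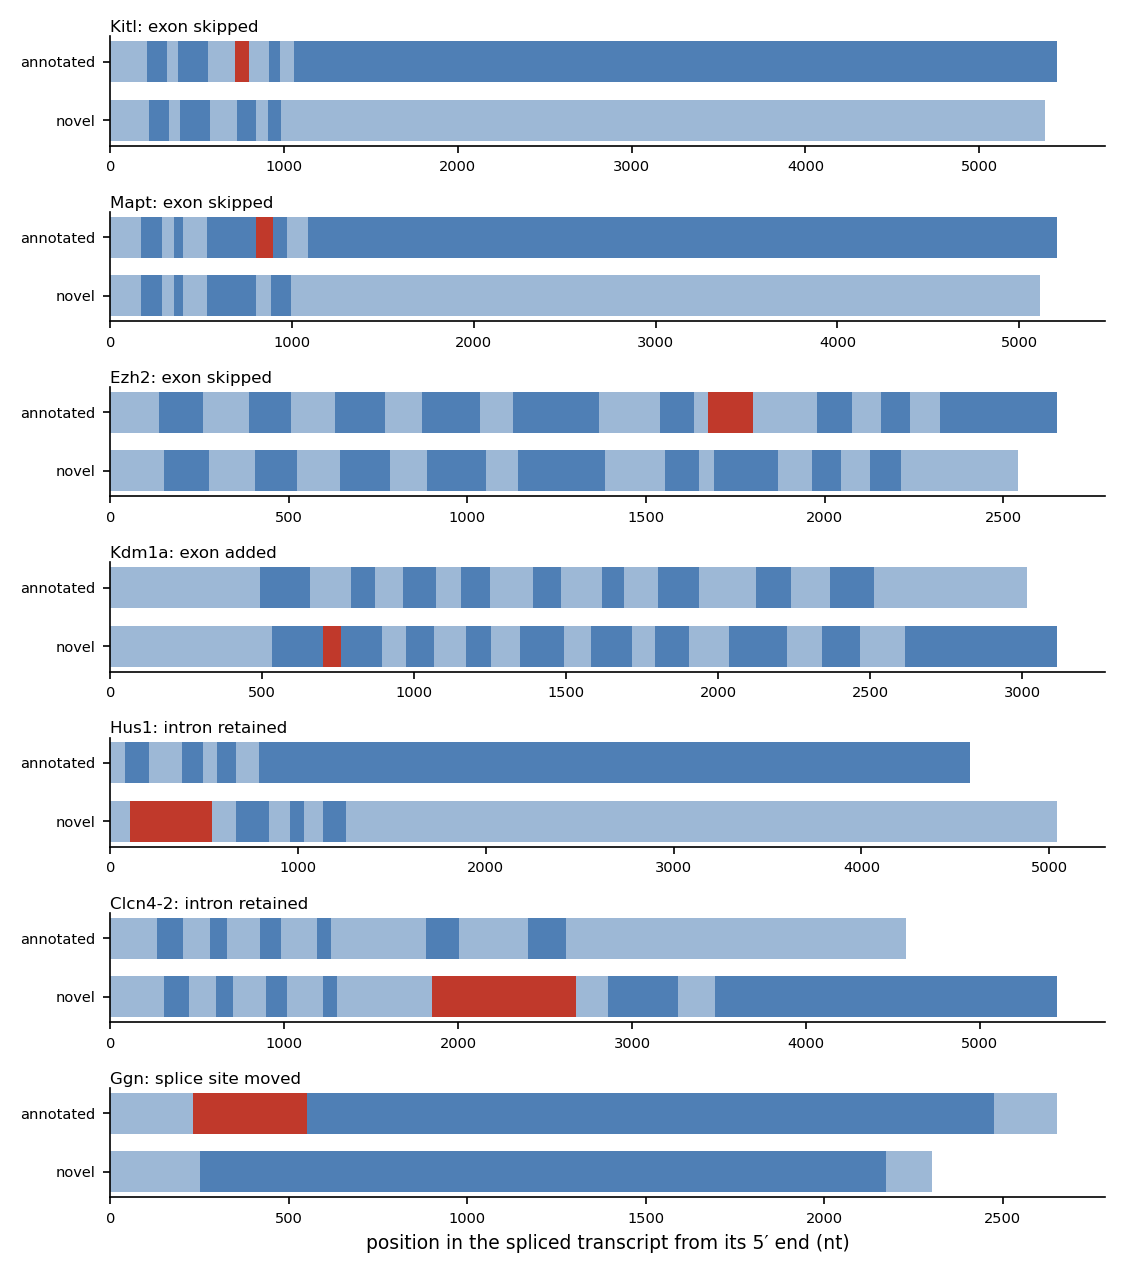
Spliced exon structure of 7 isoforms (lower bar) and their nearest annotated model (upper bar), in nucleotides from the 5′ end, with exons in alternating blues and the differing bases in red. Red marks 84 nt lost in Kitl, 93 in Mapt, 126 in Ezh2 and 320 in Ggn, and 60 nt gained in Kdm1a, 434 in Hus1 and 825 in Clcn4-2.

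Skipped and added exons, each taken singly, mostly had a length that is a multiple of 3. In 4 isoforms 2 exons were skipped in a run, and in 5 isoforms 2 were added. These exons were counted singly too, although the frame depends on their summed length, which was not used here. Of 53 exons skipped in 49 isoforms with 1 differing stretch, 34 (64.2%, 49.8 to 76.9) had a length that was a multiple of 3, and of 33 exons added in 28 isoforms, 20 did (60.6%, 42.1 to 77.1). Of all 4540 internal exons of the annotated models compared, 1785 did (39.3%, 37.9 to 40.8). The like set of annotated pairs had a share near that of the isoforms: 779 of 1161 exons skipped or added between pairs were multiples of 3 (67.1%, 64.3 to 69.8), against 54 of 86 in the isoforms (62.8%, 51.7 to 73.0). The share among skipped exons was 72.1% (31 of 43, 56.3 to 84.7) where the first intron was not involved and 3 of 10 where it was. Among added exons it was 77.3% (17 of 22, 54.6 to 92.2) outside the first intron and 3 of 11 within it. The table holds no coding regions, so how far the first intron lies before the start codon in these genes was not tested.

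The skipped exons were short. Their median was 84 bp (quartiles 60 and 131, range 18 to 258), that of added exons 109 bp (66 and 142, range 27 to 3545), and that of all internal exons 123 bp (91 and 166). Skipped and added exons together had a median of 90 bp, and those of annotated pairs 96 bp. Exons of up to 27 bp made up 3 of the 53 skipped exons (5.66%, 1.18 to 15.7) and 22 of the 4540 internal exons (0.485%, 0.304 to 0.733). The 3 were an 18 bp exon of Adam22 (chromosome 5, 8107002 to 8107019), a surface protein of neurons, a 24 bp exon of Sag (chromosome 1, 89733885 to 89733908), the visual arrestin, and a 27 bp exon of Kifc3 (chromosome 8, 97624547 to 97624573), a kinesin motor. An isoform of Ptprd, a receptor tyrosine phosphatase, skipped very short exons in 2 stretches, a 12 bp exon alone and a run of 9 and 18 bp, and one of Inpp4a, a phosphoinositide phosphatase, skipped exons of 18 and 33 bp. These genes outside the size rule were chosen after their values were seen.

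**Figure D3:**
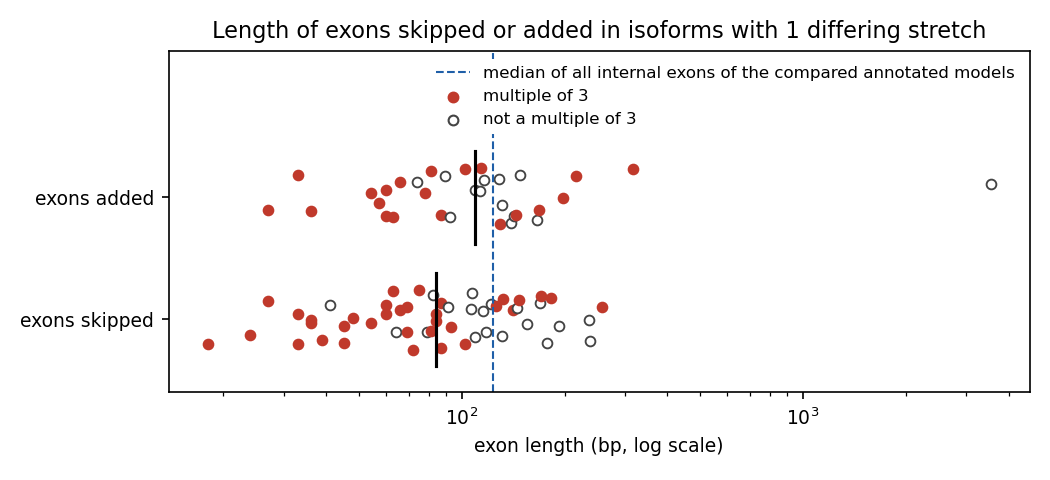
Length of each exon skipped (53) or added (33) in isoforms with 1 differing stretch, on a log axis, with filled points for multiples of 3, black bars for medians of 84 and 109 bp and a dashed line at the 123 bp median of all internal exons. Filled points outnumber open ones in both rows, at 34 of 53 and 20 of 33.

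Among isoforms with 1 differing stretch, the largest skips removed 236 to 260 bp. Isoforms with several stretches held larger ones, among them 444 bp in Lrrfip1 and 408 bp in Epb4.1l1. Tmco4 lost 2 exons of 115 and 145 bp at once (chromosome 4, stretch 138529203 to 138541046). Rapgef1, which activates the small GTPase Rap, lost 1 exon of 258 bp (chromosome 2, 29575113 to 29575370). Another isoform of Rapgef1 lost that exon together with the neighbouring one of 96 bp and had an acceptor moved by -3 bp. Dus4l lost 122 and 118 bp, l7Rn6 238 bp and Tex10 236 bp. In Tmco4, l7Rn6 and Tex10 the skip involved the first intron.

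The largest addition was far outside the others. Ankrd50 gained an internal exon of 3545 bp in its last intron (chromosome 3, 38352963 to 38356507), and another isoform of the gene had the same exon with an acceptor moved in intron 1. Zfp187, a zinc-finger gene, gained 60 and 318 bp, Lrrc29 gained 216 and 144 bp and Ubxn10 gained 131 and 148 bp, each as 2 exons. 1700113H08Rik gained 1 exon of 198 bp (chromosome 10, 86600966 to 86601163). The rest of the 28 isoforms with added exons gained 1 to 2 exons with smaller sums, down to 27 bp in Cd302, a C-type lectin receptor.

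Acceptor moves were shorter than donor moves at the median, but their lengths overlapped and differed by position too. Of the 164 isoforms whose 1 differing stretch was a moved site, 88 moved the acceptor alone, 58 the donor alone and 18 both sites of an intron. The median move was 5 bp for acceptors (quartiles 3 and 34) and 54 bp for donors (13 and 109.5). Of the 88 acceptor moves, 47 were of up to 6 bp and 23 were over 30 bp. Of the 58 donor moves, 9 and 35 were. In the first intron the median was 26 bp for acceptors and 71 bp for donors. In other introns it was 3.50 bp for acceptors and 19 bp for donors. A move of exactly 3 bp was seen in 35 of the 88 acceptors (39.8%, 29.5 to 50.8) and in 2 of the 58 donors (3.45%, 0.420 to 11.9). Of the 35, 18 made the exon longer and 17 made it shorter than in the annotated model.

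**Figure D4:**
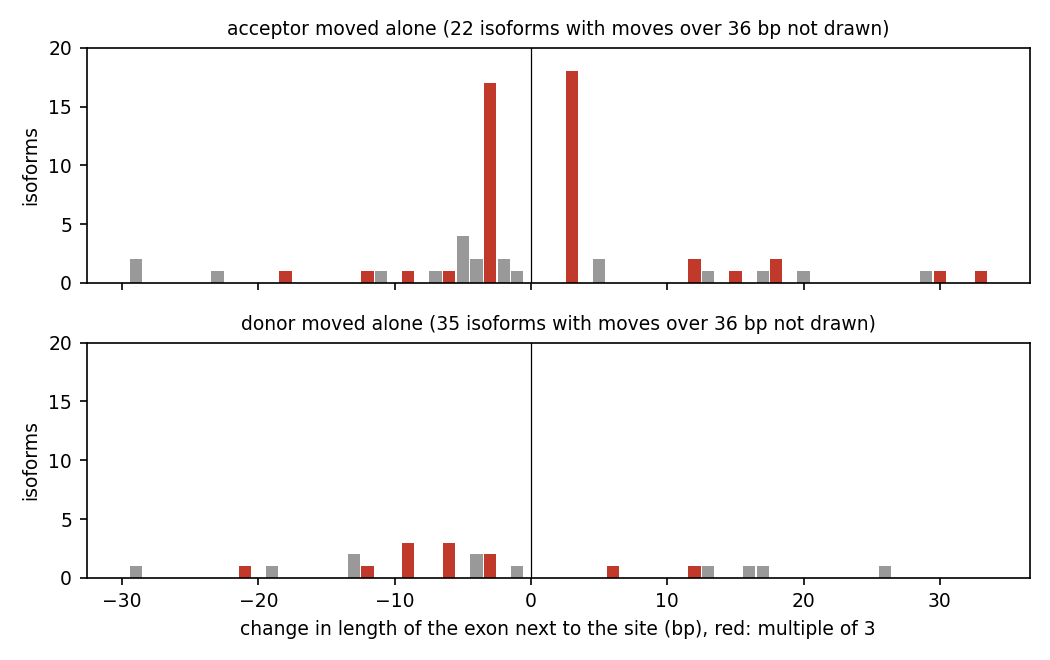
Number of isoforms by signed move of the acceptor (upper) or donor (lower) in bp, positive where the site moved so as to lengthen the exon next to it, with multiples of 3 in red and 1 exchanged first exon (1700018C11Rik) at 17 bp in the donor panel. The tallest bars of the acceptor panel are 17 isoforms at -3 bp and 18 at 3 bp, while 2 donors lie at -3 bp and 0 at 3 bp.

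The acceptor moves of 3 bp lay in genes of varied function. Among them were Ttk, a kinase of the spindle checkpoint, with 3 bp gained after intron 11 of 21, and Cenpe, a kinetochore motor, with 3 bp lost after intron 14 of 45. Foxp1, a forkhead transcription factor, gained 3 bp after intron 2. Elavl2, an RNA-binding protein, lost 3 bp after its last intron, and Itgav, an integrin subunit, lost 3 bp after its first. Ncoa3, a nuclear receptor coactivator, lost 3 bp after intron 19 of 22, and Sphk1, a sphingosine kinase, lost 3 bp after intron 2. These genes were chosen after their values were seen. Of the 35, 31 lay outside the first intron. Annotated pairs showed acceptor moves of 3 bp at a like share, 184 of 489 (37.6%, 33.3 to 42.1).

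Frame-keeping moves were more frequent at acceptors. The move was a multiple of 3 in 55 of 88 acceptors (62.5%, 51.5 to 72.6) and in 23 of 58 donors (39.7%, 27 to 53.4). With the moves of 3 bp left out, the shares were 20 of 53 (37.7%, 24.8 to 52.1) and 21 of 56 (37.5%, 24.9 to 51.5). Outside the first intron, 50 of 66 acceptor moves (75.8%, 63.6 to 85.5) and 13 of 25 donor moves (52%, 31.3 to 72.2) were multiples of 3, and in the first intron 5 of 22 (22.7%, 7.82 to 45.4) and 10 of 33 (30.3%, 15.6 to 48.7). Donor moves were also the ones that lay most often in the first intron, in 33 of 58 (56.9%, 43.2 to 69.8) against 22 of 88 acceptor moves (25%, 16.4 to 35.4).

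The longest moves, of 520 bp or more, all made the exon longer. The acceptor of intron 2 of Tex13, a testis gene on chromosome X, moved by 2067 bp (stretch 137344708 to 137347176). Donors moved by 1600 bp in Bcl11a, a zinc-finger repressor (chromosome 11, 24063289 to 24072698), by 1407 bp in Alms1, a centrosomal protein (chromosome 6, 85559120 to 85560811), by 593 bp in 3110009E18Rik and by 520 bp in Prpf39, a splicing factor of the U1 particle. The Bcl11a and 3110009E18Rik isoforms used introns that another annotated model of the gene has. In 4 isoforms, those of 1700018C11Rik, Mbd3l1, Mlh3 and Rps15a, the first exons of isoform and annotated model did not overlap although their starts lay within 50 bp, so the first exon was exchanged rather than lengthened or shortened. They are counted above as donor moves, and without them 54 donor moves had the same median of 54 bp and 22 (40.7%, 27.6 to 55) were multiples of 3.

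In 14 of the 18 isoforms with both sites moved, the intron kept its length and shifted by 2 to 5 bp. These were isoforms of Atp6ap1l, Bscl2, Cep170, Iars, Itgb3, Lpcat2b, Mll1, Polr1b, Spcs3, Tm2d1, Tmem87a, Trhde, Wdr19 and Zdhhc17. The shift moved the same number of bases from 1 exon to the next and left the spliced length as it was. Whether such a shift arose in splicing or in placing reads across the junction was not tested, since no genome sequence of the build was used here.

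Retained first and inner introns were short, while retained last introns had a median close to that of all last introns. In 45 isoforms with 1 retained intron, its median length was 163 bp (quartiles 113 and 544, range 81 to 2396), against 1461 bp (564 and 3455) for all 4885 introns of the annotated models compared. Under 200 bp were 24 of 45 (53.3%, 37.9 to 68.3) and 538 of 4885 (11%, 10.1 to 11.9). Introns that differed between annotated pairs were short too: 64 of 173 retained or removed introns were under 200 bp (37.0%, 29.8 to 44.7, median 270 bp), against 28 of 62 in the isoforms (45.2%, 32.5 to 58.3, median 243 bp). The retained intron was at or under the median length of its own model in 37 of 45 (82.2%, 67.9 to 92.0) and was its shortest in 15 (33.3%). By position, 13 were first introns with a median of 152 bp, against 3885 bp for all first introns of the annotated models compared. A further 19 were inner introns with a median of 114 bp, against 1404.5 bp for all inner introns. The other 13 were last introns with a median of 1046 bp, against 1155 bp for all last introns. Of these 13, 7 were over 1000 bp. Of the 8 retained introns over 1000 bp, the 1 that was not a last intron was that of Fastkd3.

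**Figure D5:**
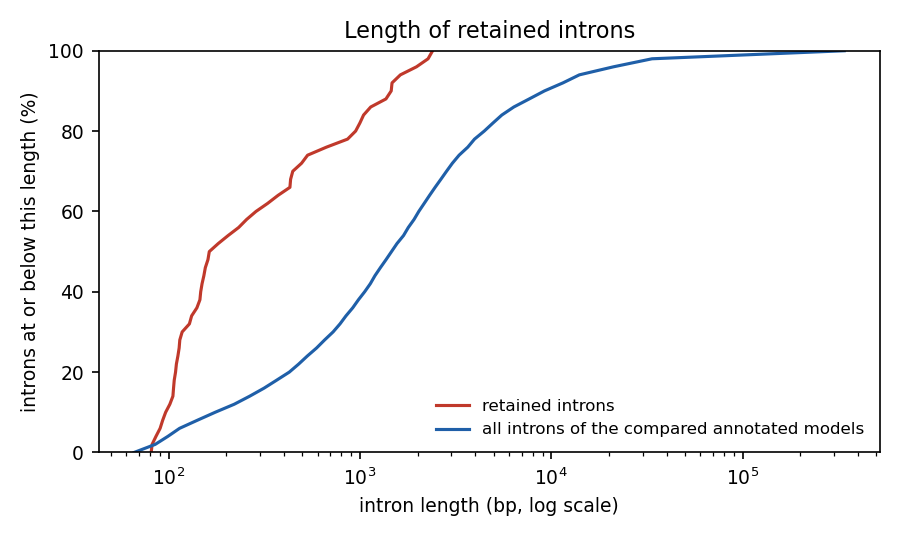
Cumulative share of introns (%) by length (bp, log axis) for the 45 introns retained in isoforms with 1 differing stretch (red) and all 4885 introns of the annotated models compared (blue). The red curve lies to the left of the blue one over most of its range, with medians of 163 and 1461 bp.

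The longest retained introns were 2396 bp in Fastkd3, a mitochondrial RNA-binding protein (intron 3 of 6, chromosome 13, 68724141 to 68726536), and 2251 bp in Mms22l, which acts in repair of stalled replication forks (last intron, chromosome 4, 24527470 to 24529720). Wdr19, a protein of intraflagellar transport, retained its last intron of 1885 bp (chromosome 5, 65649468 to 65651352), Qsox2 its last of 1480 bp and Adamtsl1 its last of 1461 bp. Other retained introns were of 82 bp in Rps10 and 266 bp in Rpl27, which encode ribosomal proteins, and 434 bp in Hus1, part of the clamp of the DNA damage checkpoint. An isoform of Rpl10a retained introns 3, 4 and 5, of 326, 1002 and 132 bp. The ribosomal genes and Hus1 were chosen after their values were seen.

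Introns cut out of annotated exons ran the other way. The 17 had a median of 336 bp (range 78 to 1660). Last exons held 10 of them, single-exon models 3, first exons 2 and inner exons 2. The longest were 1660 bp of the last exon of Prkar2b, a regulatory subunit of protein kinase A (chromosome 12, 32643587 to 32645246), 1398 bp of the first exon of 1700029J07Rik (chromosome 8, 47059035 to 47060432) and 942 bp of the last exon of Tmem201. Fubp3 lost 553 bp of its last exon and Pja1, a ubiquitin ligase, 540 bp of its last. Fscb, a protein of the sperm fibrous sheath, was annotated as a single exon of 3566 bp, and its isoform lost 144 bp (chromosome 12, 65574018 to 65574161). Fscb was chosen after its values were seen.

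First and last introns held a larger share of the differences than of all introns pooled, but these shares were counted differently and the contrast was not tested. Each isoform with 1 differing stretch counts once among the differences, while models with many introns weigh more among all introns. An intron that is the only one of its model counts as both first and last among the differences. Among all introns it counts as first only. The first intron was involved in 36% of moved sites (59 of 164, 28.6 to 43.8), 32.1% of added exons (9 of 28, 15.9 to 52.4), 28.9% of retained introns (13 of 45, 16.4 to 44.3) and 18.4% of skips (9 of 49, 8.76 to 32.0), and first introns were 6.96% of all introns. Over the stretches of all isoforms, those with several differences included, these shares were 32.2%, 20.5%, 18.6% and 15.8%, those of added exons and retained introns thus lower by over 1.5 times. Last introns were involved in 28.9% of retentions, 28.6% of added exons, 22.4% of skips and 15.9% of moved sites, and were 6.73% of all introns. A skip touches at least 2 introns, which raises its chance of touching an end.

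Within the differing stretch, the spliced length changed little for moved sites and more for the other classes. The sum of bases gained and lost there had a median of -3 bp for moved sites (quartiles -14.2 and 5.25). Of the 164 stretches, 61 gained and 89 lost bases on balance. Differences at the transcript ends are left out, so a whole isoform can differ from its annotated model in the other direction. The medians were -87 bp for skipped exons, 115 bp for added exons, 163 bp for retained introns and -336 bp for introns cut out of exons.

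The 4 genes with 3 isoforms each showed different mixtures. Art5, an ADP-ribosyltransferase, had an intron of 281 bp cut out of exon 3, a donor moved by -435 bp at intron 3 and an acceptor moved by -52 bp at intron 1. Clcn4-2, a chloride and proton exchanger, skipped exon 3 of 155 bp, retained intron 9 of 825 bp, or moved the acceptor of intron 11 by -57 bp. Rundc3a retained intron 7 of 107 bp in 2 isoforms, in 1 of them with an acceptor moved by -5 bp, and in the other isoform moved an acceptor by -12 bp. Wdr19 retained its last intron in 2 isoforms and shifted intron 8 by 4 bp in 2, and 1 isoform had both. The isoforms of Rundc3a and of Wdr19 thus share stretches, and those of Clcn4-2 do not. In Art5, the cut-out intron and the intron with the moved donor overlap and have the same donor, at 109246729 on chromosome 7.

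Few listed genes of germ cells and of RNA splicing had such isoforms, and the number is too small to place their share above or below that of all genes. The 10 lists of piRNA pathway, meiosis, spermatid, splicing, germline transcription and cell-type genes held 269 genes with an annotated multi-exon model, and 4 of these (1.49%) had an isoform. Of the 225 genes of the 6 germ cell and splicing lists with a model coded as protein coding, the same 4 did (1.78%, 0.486 to 4.49), against 2.66% of all such genes (2.39 to 2.96). They were 1 of 23 genes of the piRNA pathway, 1 of 38 of meiosis, 1 of 64 splicing factors and 1 of 47 of germline transcription and chromatin. None was found among 49 spermatid and sperm genes, 14 genes of spermatogonia, 12 of Sertoli cells, 8 of Leydig cells, 9 of peritubular, vascular and immune cells and 9 of other tissues.

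In Ddx4, the RNA helicase Vasa of the germ cell lineage, the acceptor of intron 9 of 21 moved so that the exon was 15 bp longer (chromosome 13, stretch 113415031 to 113415552). In Mlh3, a partner in meiotic crossover formation, the first exon was exchanged at intron 1, with the donor 65 bp further on. Tra2a, a splicing regulator, lost 6 bp at the donor of intron 6 of 7 (chromosome 6, 49194935 to 49195480). In Taf1, a subunit of the general transcription factor TFIID, the isoform retained intron 21 of 152 bp, skipped an exon of 15 bp (chromosome X, 98756273 to 98756287) and differed also over introns 8 to 10 with 9 bp gained and 90 bp lost.

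Other genes of sperm and of cell division were present among the 340, and these were chosen after their values were seen. Ggn, a germ cell protein of late spermatogenesis, had the acceptor of intron 1 moved by -320 bp. The lysozyme-like genes Lyzl4 and Lyzl6 had donors moved by 110 and -90 bp, and the protease-like gene Prss37 had an acceptor moved by 74 bp. Spdyb, an activator of cyclin-dependent kinases, had 2 isoforms, with a skipped exon of 169 bp and a donor moved by -121 bp. Both isoforms of Izumo2, a relative of the sperm and egg fusion protein, combined several differences, among them an added exon of 81 bp and a retained intron of 81 bp in 1 isoform. Espl1, the separase that cleaves cohesin, had an acceptor moved by 29 bp at intron 1 of 30. Sgol1, which protects cohesin at centromeres, retained intron 2 of 131 bp with a donor moved by 31 bp. Racgap1, needed for cytokinesis, retained an intron of 80 bp and skipped exon 2 of 131 bp.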

How the data were processed

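The deposited data were 1 headerless BED table of 12 columns for the whole series, in mm9. TopHat2 2.0.4 is named in the submitters' processing notes. The sources used here do not give how the authors assembled, filtered and coded the models, and 0 columns held values per sample. Depth is therefore unknown. Introns were the gaps between the blocks of a model, and coordinates are counted from 1. Each isoform was set against the end-matched annotated model with the fewest unshared introns, and overlapping unshared introns were joined into stretches and classed. The classing was checked on models of known class. Symbols were matched to the GRCm38.p6 gene tables, for names only: 338 of 340 matched, 303 as a current symbol and 338 as protein coding. The isoforms, gene lists and measures were chosen with earlier results of these data known. The pairs of annotated models, and 3 alternatives, were chosen after seeing the data. Named by rule were list genes, the 5 largest differences per class and the genes with the most isoforms. A gene with an isoform is counted but not reported here by name. The planned placing of differences in coding regions and proteins was not run, because the columns for coding regions repeat the transcript ends in all but 2 models. Python 3.11.15, NumPy 2.4.6, SciPy 1.17.1 and Matplotlib 3.10.9 were used.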

Additional observations from a re-analysis of the deposited data

How the results depend on the processing

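Of 142 values under alternatives, 27 moved, 0 changed direction and 115 stayed within the tolerance, which was 1.5 times for a count and the 95% interval of the reported share or median. The end limit moved the counts most. With ends within 10 bp there were 202 isoforms in 182 genes (28 exon skipped, 16 added, 34 retained, 88 moved sites, 9 introns cut out of exons, 0 unclassed and 27 of several kinds). Of these, 46 moved an acceptor alone (17 of them by 3 bp) and 23 a donor alone, and 27.9% of moved sites were in the first intron. With ends within 100 bp there were 577 in 519 genes, with 83 skips, 95 retentions and 11 unclassed. With both ends at an annotated base, an alternative chosen after seeing the data, there were 22 skipped, 10 added, 28 retained, 59 moved, 5 cut out, 0 unclassed and 22 of several kinds. Taking sites within 5 bp as the same left 103 moved sites and 7 unclassed. Introns compared with every annotated model of the gene, short gaps filled, 1 isoform per intron set, placed chromosomes only, another choice of annotated model, stretches of all isoforms, and distinct stretches once kept every value within that tolerance. So did 2 alternatives chosen after seeing the data, leaving out introns that shifted as a whole and taking isoforms with a new intron only. Within it, stretches of all isoforms gave 116 acceptor moves, 49 of them by 3 bp, 76.1% of skipped exons as multiples of 3, and 20.5% of added exons and 18.6% of retained introns in the first intron. No paired analysis was possible because each group had 1 library and the table has no values per sample. Read depth behind each junction is unknown, so no isoform could be ranked by abundance. The position of the differences in coding regions was not run.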

Other observations

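Models coded otherwise showed like isoforms by the same rule. Of 2330 models of new form coded XX, 78 met it (24 with a moved site, 28 with a retained intron, 13 with a skipped exon and 3 with an added exon), and of 132 coded as noncoding (NR), 12 did. The sources used here do not give what XX means, and the difference in classes from the 379 isoforms was not tested. An unannotated intron of 54 of the 379 isoforms (14.2%, 10.9 to 18.2) was also used by another model in the table. At least 2 annotated models with matched ends were found for 50 isoforms (13.2%, 9.95 to 17.0), and 8 (2.11%, 0.916 to 4.12) were set against a noncoding model of their gene. Itpr1, a calcium channel of the endoplasmic reticulum, had an isoform that skipped exons of 33, 36 and 51 bp in 1 run and moved a donor by 27 bp. Nf2, the tumour suppressor merlin, had an isoform that added an exon of 45 bp in its last intron and skipped an exon of 135 bp, and another that moved the donor of that intron by 16 bp. Both genes were chosen after their values were seen.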
